A study of Mus musculus with 8 samples.

Results

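The Zfp genes of the mouse encode zinc finger proteins, and 171 of them were expressed in JUN TetON embryonic stem cells (ESCs) treated with bromodomain inhibitors. The members are the rows named Zfp followed by digits alone, of which the table held 373 among 50600 rows. A mean of at least 10 TPM (a transcript's share of all transcripts, scaled to a fixed total) over the 8 libraries was required, and Zfp36, Zfp42 and Zfp352 were left out by name. Of these 3, Zfp42 was the single row that had reached that level. The members were thus chosen by their mean TPM over all 8 libraries, so their level is no finding. A gene could reach the level only because of the groups where it was high, so the choice is not free of treatment. Zfp365 had means of 6.5 TPM under DMSO and 8.5 under PFI-3 but 20 under BI-9564 and 18 under P+B. Zfp383 had 12.5 TPM under DMSO and 7 under P+B. Another 199 Zfp rows lay under the level, 88 of them at a mean of 5 to 10 and 20 at 0 in every library. Just outside it were Zfp111 and Zfp748 at a mean of 9.75 and Zfp995 at 9.875, and just inside it Zfp87 and Zfp942 at 10 and Zfp383 at 10.125.

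Most Zfp proteins carry C2H2 zinc fingers, short folds that hold a zinc ion and read DNA a few bases at a time. Many also carry a KRAB domain, which recruits the co-repressor KAP1 (the product of Trim28) and through it the histone methyltransferase SETDB1, and such proteins are known in ESCs for silencing retroelements and guarding imprints. KRAB zinc finger genes often lie in clusters of close copies. Other Zfp proteins bind RNA, act on ribosomes or the mitotic spindle, or work as ordinary transcription factors, so the family shares a fold and a name rather than a task.

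The cells were OG2 transgenic ESCs of mixed background (129SVJ, C57B6 and CBA) with the genotype c-Jun_TetOn, grown without feeders in 2i medium with LIF. All libraries came from cells given 2 μg/ml doxycycline, which switches on JUN and drives a pluripotent to somatic transition, and every group therefore lacked an uninduced control. The groups received DMSO (the solvent), PFI-3 (an inhibitor of the BRG1 bromodomain), BI-9564 (an inhibitor of the BRD7 and BRD9 bromodomains) or both (P+B). Each group had 2 libraries. The study used the inhibitors to block the BAF chromatin remodeller's reading of acetylated histones. The comparisons describe changes within JUN-induced cells and cannot single out JUN's effect. The labels give 6 h of treatment, the study itself describes a longer JUN induction, and how much of each inhibitor went into P+B is not settled by the sources used here, so the single and combined treatments may differ in dose. One engineered line was used, and since nothing says that the 2 libraries of a group came from separate cultures, p-values measure the spread between these libraries, which may be technical.

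All 10 pluripotency markers checked were expressed, whereas the 10 fibroblast markers summed to at most 5 TPM in any library, with Col1a2, Pdgfra, Postn, Dcn and Lum at 0 throughout, and the 6 primitive endoderm markers to at most 10 TPM. In bulk RNA, fewer cells of a kind and less RNA per cell cannot be told apart. Members summed to 5941 to 6575 TPM per library, 0.599% to 0.663% of all signal, and their replicates differed by a median of 0.175 to 0.222 on the log2 scale. Values are TPM that the authors made whole numbers, so sequencing depth and counting error are unknown and a step of 1 TPM is coarse for the lowest members. Jun, the induced gene, was at 1970 and 2877 TPM under DMSO, 1570 and 2227 under PFI-3, 2071 and 3011 under BI-9564, and 1569 and 2159 under P+B. It was lower in both libraries treated with PFI-3 or P+B than in the same-numbered DMSO library, and its part in the results that follow was not tested.

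The family as a whole lay close to other genes with P+B. The median log2 fold change against DMSO, on the log2(TPM + 1) scale used for all fold changes here, was 0.07 over the 171 members and 0.05 over all 8632 genes with a mean of at least 10. Of the members, 57.9% lay above 0, against 57.3% of those genes. Pooled over levels, 6.43% of members were higher by at least 1.5-fold and 5.26% lower, against 5.73% and 5.66% of genes. Split by level, the shares differed more, over 31 to 50 members each. At 10 to 15 TPM members had 16% and 4% (genes, 14.9% and 7.88%). At 15 to 25 TPM they had 2.17% and 10.9% (genes, 9.66% and 6.66%). At 25 to 50 TPM they had 2.27% and 4.55% (genes, 4.89% and 5.61%). At 50 TPM and more they had 3.23% and 0% (genes, 1.18% and 4.44%). The sign of the family median hung on the scaling, since it was 0.07 as deposited, -0.00095 after quantile normalization and -0.02 after median centring. All comparisons with DMSO share the same 2 DMSO libraries.

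With PFI-3 the family lay slightly higher than other genes, at a median of 0.07 against 0.02, with 64.3% of members and 53.9% of genes above 0. The member median was 0.05 between the replicate 1 libraries and 0.12 between the replicate 2 libraries. It was 0.02 without DMSO replicate 2 and 0.09 without DMSO replicate 1, so its size hung on the DMSO libraries. With BI-9564 the member median was 0.00 and the gene median 0.02, with 48.5% of members and 52.7% of genes above 0. Between the single compounds, members were at a median of -0.06 with BI-9564 against PFI-3, where all genes were at 0.00, and 40.9% of members lay above 0 against 49.2% of genes.

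**Figure D1:**
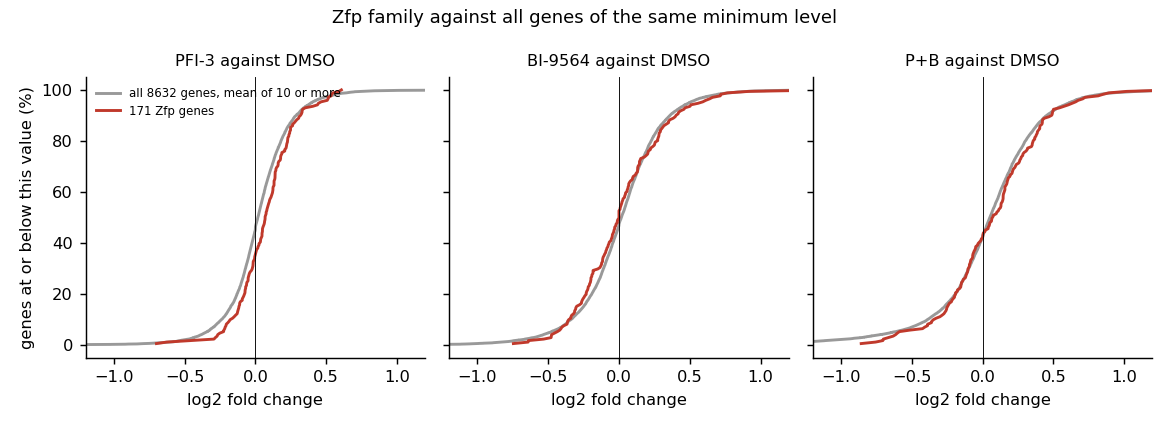
Cumulative share of genes (%) by log2 fold change against DMSO, for the 171 Zfp genes (red) and all 8632 genes with a mean of at least 10 TPM (grey). The curves nearly coincide with P+B, at medians of 0.07 and 0.05, and the red curve lies to the right with PFI-3, at 0.07 against 0.02. Values beyond 1.2 in either direction are not drawn.

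Members were also set beside genes of similar level. At a mean of 10 to 15 TPM, 50 members had a median of 0.15 with P+B and the 1193 genes of that level 0.15. In the group of 15 to 25 TPM, the 46 members were at 0.20 and the genes at 0.14, and in that of 25 to 50 TPM the 44 members were at 0.01 and the genes at 0.09. With BI-9564 the members of these 3 groups were at 0.08, -0.02 and -0.02, and the genes at 0.08, 0.08 and 0.04. At 50 TPM and more, 31 members were at -0.09 with P+B and -0.12 with BI-9564, where the 3401 genes of that level were at -0.01 and -0.02. With PFI-3 the same 31 members were at 0.10 and the genes at -0.00, and 77.4% of these members lay above 0. Directly between BI-9564 and PFI-3 they were at -0.26 and the genes at -0.02. Of these 31 members, 11 belong to a single gene cluster on chromosome 4, and the other 20 were at 0.03 with P+B, 0.00 with BI-9564 and 0.04 with PFI-3.

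**Figure D2:**
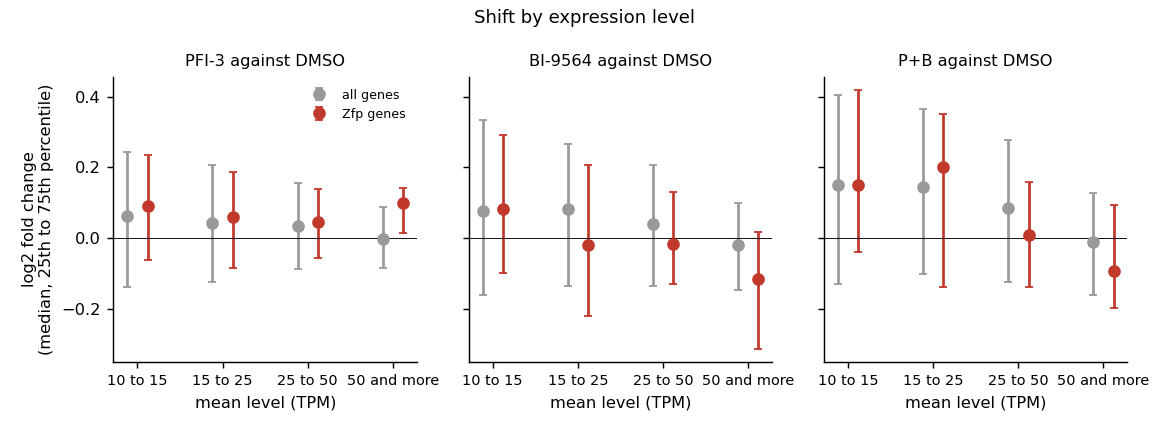
Median log2 fold change against DMSO (points) with the 25th to 75th percentile of genes (bars), in 4 groups of mean level (TPM), for Zfp genes (red) and all genes (grey). Members of 50 TPM and more sit at 0.10 with PFI-3 but at -0.12 with BI-9564, and at -0.09 with P+B, and all genes of that level between -0.02 and -0.00.

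A handful of members passed the thresholds of 0.05 for the adjusted p-value and 1.5 for the fold change (limma over 10222 genes, Benjamini-Hochberg adjustment). With P+B against DMSO, 3 members were called higher, or 1.75% of members beside 1.37% of all genes of that minimum level, and 2 were called lower, or 1.17% beside 2.99%. The 3 were Zfp365, Zfp346 and Zfp809, and the 2 were Zfp655 and Zfp710. When the replicate number was added as a block, 4 members were called higher (all genes, 3%) and 5 lower (all genes, 4.37%), and Zfp68 joined the first group and Zfp819, Zfp462 and Zfp13 the second. The calls were fragile: none remained when either DMSO library or either P+B library was left out, 1 (Zfp809) without either PFI-3 library, 3 (Zfp346, Zfp809 and Zfp710) without either BI-9564 library, and 0 when the 4 libraries were fitted alone. The signs of all 5 were the same in each of these fits.

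Zfp365 (ENSMUSG00000037855.15, chr10:67886103-67912662), whose product, also called DBZ, binds the scaffold protein DISC1, showed the largest rise among members. It was at 8 and 5 TPM under DMSO, 10 and 7 under PFI-3, 22 and 18 under BI-9564, and 20 and 16 under P+B. Both groups that contain BI-9564 lay above all 4 libraries of the other groups. It reached the level of 10 TPM only through those groups, at a mean of 6.5 under DMSO and 8.5 under PFI-3. The log2 fold change with P+B was 1.36 ± 0.27 (SE, limma, n = 2 a group, adjusted p = 0.0322). With BI-9564 alone it was 1.51 ± 0.27, which missed the threshold in limma (adjusted p = 0.0817) and passed it with the replicate block (adjusted p = 0.0186). With PFI-3 alone it was 0.35 ± 0.27 (limma, adjusted p = 0.885).

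Zfp809 (ENSMUSG00000057982.8, chr9:22225714-22243354), a KRAB protein known for silencing murine leukaemia viruses in ESCs, was at 57 and 45 TPM under DMSO, 56 and 46 under PFI-3, 77 and 79 under BI-9564, and 87 and 93 under P+B. The 4 libraries with BI-9564 again lay above the 4 without it, and the P+B pair lay above the BI-9564 pair. The log2 fold change was 0.82 ± 0.14 with P+B against DMSO (limma, adjusted p = 0.0203) and 0.81 ± 0.14 with P+B against PFI-3 (limma, adjusted p = 0.0395). With BI-9564 alone it was 0.61 ± 0.14 (limma, adjusted p = 0.134, and 0.0526 with the replicate block).

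Zfp346 (ENSMUSG00000021481.11, chr13:55105311-55134825), which encodes a protein that binds double-stranded RNA, was at 29 and 22 TPM under DMSO, 27 and 28 under PFI-3, 43 and 27 under BI-9564, and 47 and 58 under P+B. Only the P+B pair lay above every other library, while 1 of the BI-9564 libraries sat among the controls. The log2 fold change with P+B was 1.02 ± 0.23 (limma, adjusted p = 0.0459).

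Zfp710 (ENSMUSG00000048897.15, chr7:80024814-80094173) was at 64 and 49 TPM under DMSO, 59 and 58 under PFI-3, 47 and 34 under BI-9564, and 32 and 29 under P+B. It was lowest with P+B and intermediate with BI-9564. The log2 fold change was -0.86 ± 0.18 with P+B (limma, adjusted p = 0.0401) and -0.48 ± 0.18 with BI-9564 (limma, adjusted p = 0.289). Zfp655 (ENSMUSG00000007812.16, chr5:145231715-145247302) was at 35 and 34 TPM under DMSO, 32 and 35 under PFI-3, 33 and 35 under BI-9564, and 24 and 19 under P+B. In contrast to the other 4, it lay within 3 TPM in the 6 libraries of the other groups and fell with P+B, by 0.67 ± 0.15 on the log2 scale (limma, adjusted p = 0.0431). In GENCODE M21, on the files' build of GRCm38, Zfp346, Zfp809, Zfp710 and Zfp800 overlap other annotated genes, and whether the counting used strand is not given in the sources used here, so reads of the overlapping parts cannot be told apart.

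**Figure D3:**
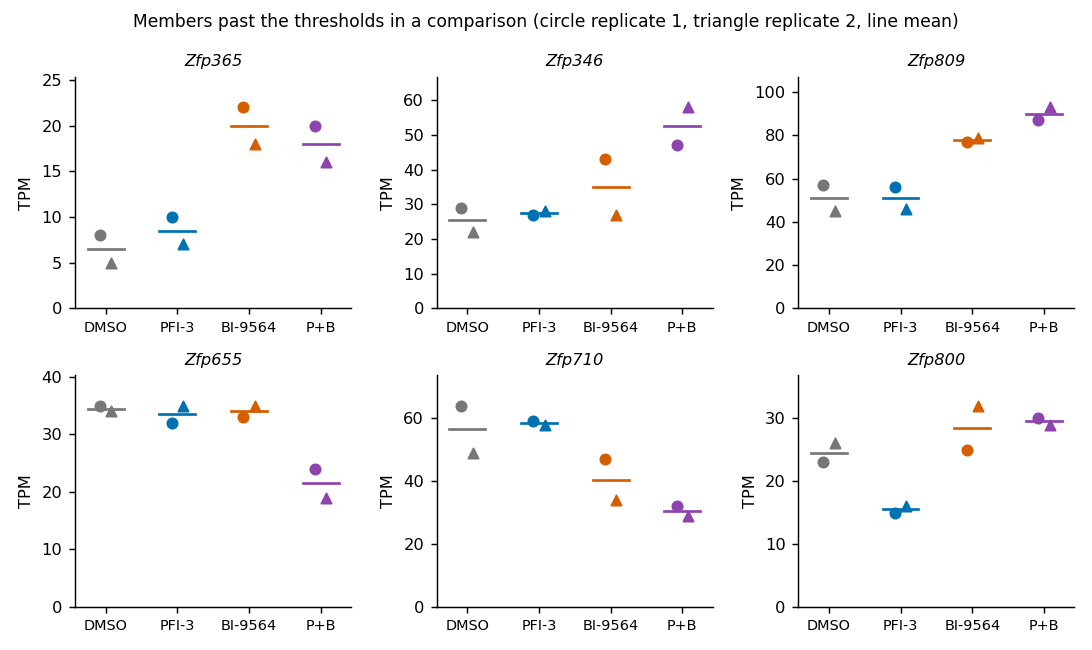
TPM in each library (circles replicate 1, triangles replicate 2, lines group means of 2 libraries) for the 6 members past the thresholds in a comparison, on axes from 0. Zfp365 and Zfp809 are higher in both groups with BI-9564, Zfp655 falls with P+B, and Zfp800 is lowest with PFI-3, at 15 and 16 TPM.

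The promoters of the 5 members called with P+B are shown to set their sequence beside these values. They run from 250 bases before to 50 after the gene's start as given by RefSeq on GRCm38.p6, printed 5′ to 3′ on the gene's strand, and capitals mark matches, on either strand, to the 7 motifs searched. These were the AP-1 site TGANTCA, the related CRE site TGACGTCA, the ETS site CCGGAAGT, the NRF1 core GCATGCGC, the YY1 site AAGATGGC, the GC box GGGCGG and the TATA box TATAAA, none overlapping another in these windows, and a match is a string of letters and not a shown binding site.
Zfp365 (chr10:67912613-67912912, minus strand): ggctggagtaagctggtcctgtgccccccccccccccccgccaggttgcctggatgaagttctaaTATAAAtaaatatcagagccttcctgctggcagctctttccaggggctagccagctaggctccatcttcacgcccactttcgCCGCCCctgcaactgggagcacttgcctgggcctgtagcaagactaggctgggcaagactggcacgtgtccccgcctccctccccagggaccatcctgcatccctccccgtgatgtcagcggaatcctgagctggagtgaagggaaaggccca
Zfp346 (chr13:55105072-55105371, plus strand): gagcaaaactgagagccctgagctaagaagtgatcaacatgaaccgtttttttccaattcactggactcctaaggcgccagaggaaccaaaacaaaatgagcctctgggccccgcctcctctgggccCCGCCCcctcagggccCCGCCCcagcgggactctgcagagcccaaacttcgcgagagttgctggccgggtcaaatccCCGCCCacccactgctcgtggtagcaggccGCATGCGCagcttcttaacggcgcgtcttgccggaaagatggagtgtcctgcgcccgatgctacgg
Zfp809 (chr9:22225453-22225752, plus strand): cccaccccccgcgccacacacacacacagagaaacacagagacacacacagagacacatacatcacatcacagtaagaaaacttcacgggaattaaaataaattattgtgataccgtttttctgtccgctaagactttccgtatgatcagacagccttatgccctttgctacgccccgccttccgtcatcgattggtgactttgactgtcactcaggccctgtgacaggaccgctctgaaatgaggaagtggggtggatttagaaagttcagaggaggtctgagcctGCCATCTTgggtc
Zfp655 (chr5:145231492-145231791, plus strand): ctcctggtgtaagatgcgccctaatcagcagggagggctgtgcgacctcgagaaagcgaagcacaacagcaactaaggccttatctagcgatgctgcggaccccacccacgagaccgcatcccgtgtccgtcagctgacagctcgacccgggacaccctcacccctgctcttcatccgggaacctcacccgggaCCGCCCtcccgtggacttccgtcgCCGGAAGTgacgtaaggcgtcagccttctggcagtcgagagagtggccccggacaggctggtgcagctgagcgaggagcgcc
Zfp710 (chr7:80024564-80024863, plus strand): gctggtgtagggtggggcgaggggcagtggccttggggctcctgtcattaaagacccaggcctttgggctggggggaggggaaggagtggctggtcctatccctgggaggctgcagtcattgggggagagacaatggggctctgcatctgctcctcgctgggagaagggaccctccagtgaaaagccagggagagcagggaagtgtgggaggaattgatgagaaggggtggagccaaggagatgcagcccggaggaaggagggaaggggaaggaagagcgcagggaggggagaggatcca
No motif is held by all 5 windows. Zfp365 has GGGCGG (read as CCGCCC) and TATAAA, Zfp346 has GGGCGG at 3 places and GCATGCGC, Zfp809 has AAGATGGC (read as GCCATCTT), Zfp655 has GGGCGG and CCGGAAGT, and the Zfp710 window holds none of the 7. CpG dinucleotides numbered 8, 20, 11, 25 and 4 in that order.

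Across the family, 137 of 171 members had a promoter in the RefSeq table. Only the first listed promoter of each gene was used, so any other start was not searched. GGGCGG, the GC box, was in 51.1% of them, against 68.6% of the 6653 promoters of all genes with a mean of at least 10 and 35.9% of all 27025 promoters. TGANTCA, the AP-1 site that JUN binds, was in 2.92% of member promoters, 4.19% of those of expressed genes and 7.93% of all, and TGACGTCA in 3.65%, 3.86% and 1.88%. CCGGAAGT was in 11.7%, 10.5% and 4.0%, GCATGCGC in 6.57%, 6.96% and 2.8%, AAGATGGC in 6.57%, 6.0% and 2.88%, and TATAAA in 5.11%, 5.92% and 14.2%. Median CpG counts were 16 for members, 22 for expressed genes and 7 for all, and members with a KRAB pattern had 10 against 20 for those without.

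Most members moved less than these. With P+B, both libraries of the group lay above both DMSO libraries for 54 members (31.6%, beside 28.7% of all genes of that minimum level) and below both for 29 (17%, beside 20%). After the called genes, the highest changes belonged to Zfp821 at 0.89, Zfp688 at 0.85, Zfp68 at 0.72, Zfp12 at 0.71, Zfp653 at 0.68, Zfp954 at 0.66 and Zfp317 at 0.63, all with adjusted p-values from limma of 0.0868 or more. All of these except Zfp317 had a DMSO mean of 8 to 9 TPM, so they reached the level of 10 through treated libraries. Leaving out 1 DMSO library moved Zfp688 to 0.35 or 1.35, Zfp821 to 0.50 or 1.28 and Zfp12 to 0.42 or 1.00, and leaving out 1 P+B library moved Zfp653 to 0.42 or 0.93. Zfp821 was at 6 and 11 TPM under DMSO, 12 and 14 under PFI-3, 19 and 14 under BI-9564, and 16 and 16 under P+B, above DMSO in all 6 treated libraries. At the low end, after Zfp710, were Zfp819 at -0.76, Zfp383 and Zfp13 at -0.70, and Zfp655, of which Zfp383 ranged from -1.09 to -0.32 with a DMSO library left out. Zfp13 was at 29 and 36 TPM under DMSO and at 19 and 20 under P+B (limma, adjusted p = 0.0681, and 0.0173 with the replicate block).

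**Figure D4:**
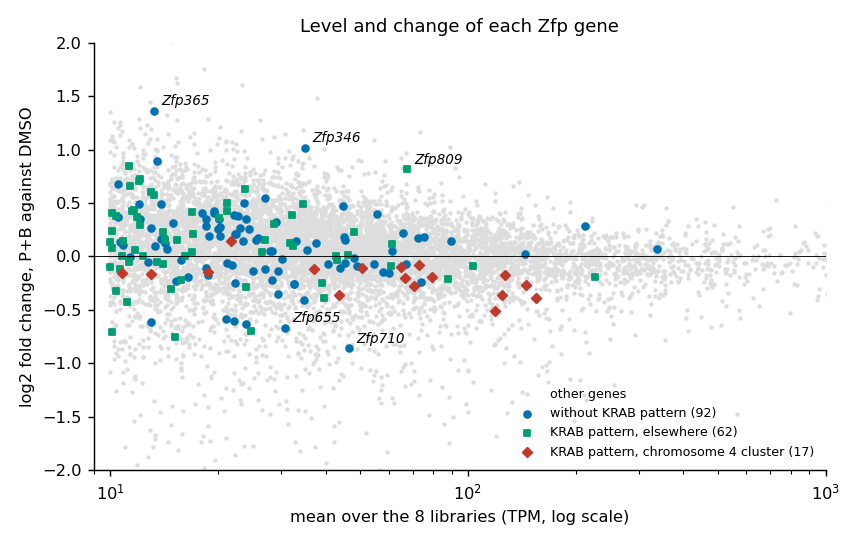
Mean TPM over the 8 libraries (log axis) against the log2 fold change with P+B against DMSO, for members without a KRAB pattern (blue circles), KRAB members elsewhere (green squares), the chromosome 4 cluster (red diamonds) and other genes (grey dots; those beyond the axes are not drawn). The cluster lies below 0 for 16 of 17 genes, and the 5 called members are labelled.

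Few genes were called with the single compounds, among members or among all genes. With 2 libraries a group, a lack of calls does not show a lack of change. With PFI-3, 0 members were called higher and 0 lower in limma (all genes, 0% in both directions), with 6 higher and 2 lower at an unadjusted p-value under 0.05 (all genes, 3.99% and 3.17%). Both PFI-3 libraries lay above both DMSO libraries for 31 members (18.1%, beside 17.1% of genes) and below for 7 (4.09%, beside 13.2%). The highest were Zfp821 at 0.61 ± 0.28, Zfp65 at 0.59 ± 0.24 and Zfp934 at 0.55 ± 0.26. The lowest were Zfp703 at -0.70 ± 0.37, Zfp800 at -0.63 ± 0.16 and Zfp513 at -0.46 ± 0.15, none past the threshold.

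With BI-9564, 0 members were called in either direction in limma (all genes, 0.0348% higher and 0.0927% lower), with 16 higher and 14 lower at an unadjusted p-value under 0.05 (all genes, 7.51% and 8.27%). With the replicate block Zfp365 was called higher (all genes, 0.556%). Both BI-9564 libraries lay above both DMSO libraries for 31 members (18.1%, beside 22.8%) and below for 39 (22.8%, beside 19.7%). Beside Zfp365, the highest were Zfp821 at 0.92 ± 0.28 and Zfp60 at 0.77 ± 0.26, and the lowest were Zfp532 at -0.75 ± 0.26, Zfp13 at -0.64 ± 0.18 and Zfp819 at -0.64 ± 0.24.

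Between treatments, P+B against PFI-3 called 2 members higher (all genes, 0.301%) and 0 lower (all genes, 1.23%). These were Zfp809 and Zfp800. Zfp800 was at 23 and 26 TPM under DMSO, 15 and 16 under PFI-3, 25 and 32 under BI-9564, and 30 and 29 under P+B, so that the PFI-3 pair stood below all other libraries. Its log2 fold change was 0.89 ± 0.16 with P+B against PFI-3 (limma, adjusted p = 0.0433). With the replicate block 4 were called higher (all genes, 1.11%), adding Zfp365 and Zfp414, and 2 lower (all genes, 2.62%), Zfp655 and Zfp710. Leaving out any 1 of the 8 libraries left 0 members called without the block.

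P+B against BI-9564 called 0 members in limma (all genes, 0% higher and 0.232% lower), with 7 higher and 2 lower at an unadjusted p-value under 0.05 (all genes, 4.1% and 4.07%). For the departure of P+B from the added effects of both compounds, 0 members passed in limma after adjustment and 4 had an unadjusted p-value under 0.05. This count stands without a share over all genes, and the doses in P+B are not settled, so it cannot tell whether the effects add. BI-9564 against PFI-3 also called 0 (all genes, 0.0348% higher and 0.0927% lower), with 7 higher and 23 lower at an unadjusted p-value under 0.05 (all genes, 6.8% and 8.24%). With the replicate block, Zfp365 and Zfp800 were called higher (all genes, 0.544%) and Zfp57 and Zfp961 lower (all genes, 1.11%). Both BI-9564 libraries lay below both PFI-3 libraries for 50 members (29.2%, beside 21.2% of genes).

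The members were also divided by what the annotation says of them. A KRAB pattern was found in the GENCODE M21 coding sequence of 79 members, which had a median of 11 C2H2 finger patterns, and was not found in 92, with a median of 5. With P+B the median log2 fold change was 0.00 with the pattern and 0.13 without it, against 0.10 and 0.04 for PFI-3 and -0.05 and 0.01 for BI-9564. Without the chromosome 4 cluster, the 62 remaining KRAB members were at 0.12 with P+B, 0.04 with BI-9564 and 0.08 with PFI-3.

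The cluster holds 17 members, all with the KRAB pattern, within chr4:145510759-147809788 (GRCm38). It is the largest of 5 groups of members that lie close together, and it was singled out after its values were seen, so its values are a description with no test. It includes Zfp990 and Zfp980, which are among the 5 members with the highest mean. Summed over the 17 genes, the level was 1347 and 1246 TPM under DMSO, 1445 and 1431 under PFI-3, 1022 and 1117 under BI-9564, and 1063 and 1099 under P+B. The PFI-3 pair lay above both DMSO libraries and the 4 libraries with BI-9564 lay below them.

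The median log2 fold change of the cluster was 0.15 with PFI-3 against DMSO, with 15 of 17 genes above 0. It was 0.07 without DMSO replicate 2 and 0.23 without DMSO replicate 1. It was -0.20 with BI-9564, with 15 of 17 below 0, and -0.18 with P+B, with 16 of 17 below 0. Between BI-9564 and PFI-3 it was -0.44, and both BI-9564 libraries lay below both PFI-3 libraries for 15 of the 17, beside 21.2% of all genes. For P+B against PFI-3 the median was -0.40, and the same count was 15 of 17, beside 20.1% of all genes. Between P+B and BI-9564 it was -0.02, with 8 genes above 0 and 9 below. Among all genes, the largest share called in 1 direction was 2.99% without the block and 4.37% with it, lower with P+B against DMSO. None of the 17 was called in any of the 6 comparisons, with or without the replicate block (limma), since their changes were under 1.5-fold or missed the adjusted threshold. At an unadjusted p-value under 0.05 (limma), 6 were lower with P+B (all genes, 10.6%) and 5 with BI-9564 (all genes, 8.27%). At that threshold, 10 were lower with P+B against PFI-3 (all genes, 8.71%) and 13 with BI-9564 against PFI-3 (all genes, 8.24%). With PFI-3, 2 were higher (all genes, 3.99%). The cluster was picked by its values and its genes share sequence, so they are not separate observations. All these counts, also those of pairs that do not overlap, are a description and no test.

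**Figure D5:**
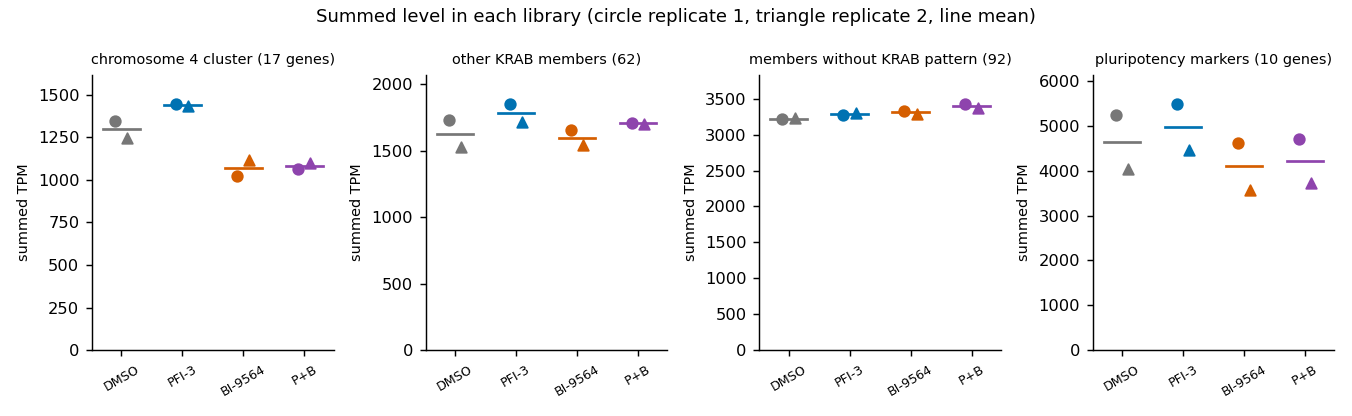
Summed TPM per library (circles replicate 1, triangles replicate 2, lines means) on axes from 0, for the chromosome 4 cluster, the other KRAB members, the members without the pattern and 10 pluripotency markers. The cluster is at 1431 to 1445 with PFI-3, 1246 to 1347 with DMSO and 1022 to 1117 in the 4 libraries with BI-9564, while members without the pattern stay between 3221 and 3425.

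Zfp990 was at 188 and 157 TPM under DMSO, 195 and 175 under PFI-3, 130 and 136 under BI-9564, and 134 and 128 under P+B. Against DMSO it changed by -0.39 ± 0.11 with P+B on the log2 scale (limma, adjusted p = 0.0815). Zfp980 was at 163 and 144 TPM under DMSO, 168 and 168 under PFI-3, 129 and 138 under BI-9564, and 120 and 135 under P+B. Zfp979, named after its values were seen, was at 131 and 140 TPM under DMSO, 144 and 132 under PFI-3, 114 and 100 under BI-9564, and 92 and 97 under P+B. Its change with P+B passed the adjusted threshold but not the 1.5-fold one, at -0.52 ± 0.10 (limma, adjusted p = 0.0306). In all 3 genes the 4 libraries with BI-9564 lay below the 4 without it.

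These genes are close copies, and a median of 56.1% of the 75-base windows of their transcripts (4.77% to 86.7%) also occur in another gene, so the split of reads among them is uncertain. A sum over the cluster is not free of this, since TPM weighs reads by transcript length and windows may be shared with genes outside the cluster. Over all 85 rows of the table that lie in the interval, the sum was 1900 and 1784 TPM under DMSO, 1985 and 2061 under PFI-3, 1517 and 1635 under BI-9564, and 1585 and 1662 under P+B, in the same order. The cluster members gave 66.1% to 72.8% of these sums, so that order is largely their own. Of the other rows with the highest means, Rex2 was at 182 and 170 TPM under DMSO and 140 and 151 under P+B. Gm13237 went the other way, from 97 and 100 TPM to 124 and 125. The 5 members with under 25% of windows shared were at a median of -0.36 with P+B, -0.37 with BI-9564 and 0.10 with PFI-3. None of the other 4 groups of neighbouring members, with 6 or 7 genes each, had more than 1 gene at an unadjusted p-value under 0.05 in 1 direction in any comparison.

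Pluripotency markers were measured beside the cluster and moved in the same directions with the single compounds but unevenly with P+B. Of 10 markers, 9 had a higher mean with PFI-3 than with DMSO and 9 a lower one with BI-9564. With P+B, 6 had a lower mean (Pou5f1, Sox2, Zfp42, Dppa5a, Tdgf1 and Utf1) and 4 a higher one (Nanog, Esrrb, Klf4 and Tfcp2l1). Esrrb, a factor of the naive state, was at 86 and 58 TPM under DMSO and at 141 and 100 under P+B, higher in both libraries of the group, where the cluster was lower. The 10 markers summed to 5237 and 4028 TPM under DMSO, 5484 and 4449 under PFI-3, 4624 and 3566 under BI-9564, and 4711 and 3725 under P+B, a sum to which Dppa5a (mean 2355 TPM) and Pou5f1 (1224) gave the most. Replicate 2 lay below replicate 1 in every group. Zfp42 (Rex1), a marker of naive ESCs left out of the family, was at 227 and 132, 257 and 189, 189 and 100, and 186 and 120 TPM in the same order. The part of pluripotency in the values of the cluster was not tested.

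Members that guard imprints or silence retroelements did not move together. Of 7 listed, 6 were tested, since Zfp708 had too low a level. Their median was -0.04 with P+B, where all genes were at 0.05, with 1 called higher (Zfp809, all genes 1.37%) and none lower (all genes, 2.99%). Zfp57, which maintains methylation of imprinting control regions, was at 279 and 190 TPM under DMSO, 333 and 225 under PFI-3, 241 and 134 under BI-9564, and 239 and 170 under P+B. Replicate 1 was higher in every group, and within both replicates the order was PFI-3, DMSO and then the groups with BI-9564. Its change between BI-9564 and PFI-3 was -0.60 ± 0.32 (limma, adjusted p = 0.446, and 0.0267 with the replicate block).

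The others were Zfp445, a second imprint regulator, at 0.12 with P+B, Zfp568, which silences a placental transcript of Igf2, at -0.21, Zfp932 at 0.39 and Zfp819 at -0.76. With 1 library left out, Zfp445 ranged from -0.11 (without DMSO replicate 1) to 0.34, Zfp568 from -0.35 to -0.07 and Zfp932 from 0.18 to 0.59. Zfp819 was at 16 and 23 TPM under DMSO, 15 and 21 under PFI-3, 11 and 13 under BI-9564, and 10 and 12 under P+B. The 4 libraries with BI-9564 lay below the other 4 (with P+B, limma, adjusted p = 0.117, and 0.0295 with the replicate block). Zfp932 has 39.6% of its windows in other genes, so its value is uncertain.

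The co-repressors with which KRAB proteins work were examined as a list. Of 23 listed genes of the KAP1 and HUSH pathway, all were tested and 0 were called in any comparison (limma). With P+B, 1.37% of all genes were called higher and 2.99% lower, so 0 of 23 is near that share. At an unadjusted p-value under 0.05, 0 of the 23 were higher and 4 lower with P+B (all genes, 12.9% and 10.6%). Their median was -0.13 with P+B, with 16 of 23 below 0. All genes with a mean of at least 10 TPM were at 0.05, with 57.3% above 0. Those of 50 TPM and more were at -0.01, with 48% above 0. Trim28, which encodes KAP1, was at 1684 and 1706 TPM under DMSO, 1625 and 1686 under PFI-3, 1650 and 1654 under BI-9564, and 1620 and 1827 under P+B, and Setdb1 at 67 and 74, 73 and 74, 71 and 67, and 62 and 69. Dnmt3l, a cofactor of DNA methylation, was at 197 and 209 TPM under DMSO, 179 and 172 under PFI-3, 147 and 143 under BI-9564, and 136 and 136 under P+B. Its fall of 0.57 on the log2 scale with P+B was under 1.5-fold (limma, adjusted p = 0.00744).

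Of 14 listed sequence-specific transcription factors, 13 were tested, Zfp521 being at 0 in every library. Zfp423 (mean 7 TPM) and Zfp516 (8.375 TPM) are among the 13 but lie under the level and are no members. The median of the 13 was -0.11 with P+B, with 9 below 0. All genes with a mean of at least 10 TPM were at 0.05, with 57.3% above 0. Among the 13, 0 were called (limma, all genes 1.37% higher and 2.99% lower). At an unadjusted p-value under 0.05, 1 was higher and 2 lower (all genes, 12.9% and 10.6%), with Zfp462 the only member among the lower. Zfp462, which represses differentiation genes in ESCs, was at 31 and 26 TPM under DMSO, 29 and 27 under PFI-3, 20 and 23 under BI-9564, and 17 and 19 under P+B. Its change with P+B was -0.63 ± 0.16 (limma, adjusted p = 0.0602, and 0.0409 with the replicate block). Zfp143, which binds promoters, was at 0.50 ± 0.17 with P+B and 0.50 ± 0.17 with BI-9564, and Zfp281, a partner of NANOG, at -0.06 ± 0.13 with P+B. Without DMSO replicate 1, Zfp281 turned to 0.05 and Zfp143 was at 0.72, and without DMSO replicate 2 Zfp143 was at 0.28. Zfp64 was at 78 and 88 TPM under DMSO, 83 and 87 under PFI-3, 58 and 56 under BI-9564, and 73 and 67 under P+B, so that BI-9564 alone gave the lowest values.

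The 12 members whose proteins act on RNA, ribosomes, ubiquitin, SUMO or the spindle were all tested. Their median was 0.03 with P+B, with 7 of 12 above 0. All genes with a mean of at least 10 TPM were at 0.05, with 57.3% above 0. Among the 12, Zfp346 alone was called (limma, all genes 1.37% higher and 2.99% lower). Zfp207, a spindle protein and the member with the highest mean, was at 319 and 338 TPM under DMSO, 311 and 319 under PFI-3, 357 and 363 under BI-9564, and 351 and 340 under P+B. Zfp598, a ubiquitin ligase of collided ribosomes, was at 0.18 ± 0.10, Zfp622, a factor of large subunit assembly, at -0.15 ± 0.13, and Zfp106, which binds RNA, at 0.02 ± 0.10, whose sign turned without DMSO replicate 1 (-0.03).

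Other zinc finger families of the same minimum level differed in the sign of their median with P+B. The medians were 0.14 for 21 Zbtb genes, 0.19 for 11 Zkscan and Zscan genes and -0.16 for 9 Klf genes. They were 0.06 for 11 Zc3h genes and 0.14 for 12 genes named Zfp with digits and a letter, some with a further digit. These sets hold 9 to 21 genes, so their medians are loose. The 88 Zfp rows at a mean of 5 to 10 were at 0.15 with P+B, 0.02 with PFI-3 and 0.14 with BI-9564. No values over all genes of that level stand beside these medians.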

How the data were processed

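RNA-seq was analysed from 8 libraries of JUN TetON ESCs, 2 each with DMSO, PFI-3, BI-9564 and P+B, grouped by their titles. The submitters' processing notes name Bowtie2 2.2.5, RSEM 1.3.0 and mm10. The authors deposited 1 table of 50600 rows in which each value is a score, namely TPM made whole numbers by the authors, as all values were whole and libraries summed to just under the TPM total. All 8 columns were used. TPM keeps no depth, so no count test was run and no counting interval can be given.

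Values were analysed as log2(TPM + 1) with limma 3.58.1 in R 4.3.3 (eBayes with a trend), all groups together without a block, on 10222 genes with a mean of at least 5. P-values are two-sided, adjusted by Benjamini-Hochberg within each of 6 comparisons. An exact permutation test of 2 against 2 libraries cannot go below p = 0.333 and was not used. Differences between replicates 1 and 2 correlated across tested genes in all 6 pairs of groups (Pearson's r from 0.143 to 0.236). Across members r was -0.009 between DMSO and P+B and 0.116 to 0.322 in the other pairs. The replicate numbers were therefore taken as a possible pairing, which the main fit does not use. A fit with the replicate block stands beside each result whose call it alters. The fit was tested on simulated data.

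The members, lists, comparisons and motifs were chosen with earlier results of these data known. Members named are the 10 highest and 5 lowest with P+B, those called, the 3 highest and 3 lowest with each single compound, those next to the level threshold, the 5 with the highest mean, and role lists. Zfp979, Zfp961 and Zfp414 were named after their values were seen, and Dnmt3l, Trim28 and Setdb1 were picked from the pathway list in the same way. Positions, KRAB patterns (at least 7 of 9 positions), C2H2 patterns and shared 75-base windows come from GENCODE M21, with KRAB read from translated coding sequence, as no protein table was used here. Clusters are at least 5 members with gaps of at most 1000000 bases. Promoters are from RefSeq, with only the first listed of each gene used. Other settings tried were that block, a pseudocount of 0.5 or 5, a low-value filter set at 1 or dropped, quantile normalization, median centring, no trend, the 4 libraries alone, each library left out, no fold threshold, an adjusted p-value of 0.01, and other member rules.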

Additional observations from a re-analysis of the deposited data

How the results depend on the processing

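With 2 libraries a group, the calls rest on a spread estimated from 4 residual degrees of freedom, and TPM in whole numbers limits the members near 10 TPM. For P+B against DMSO, 5 members were called as reported, against 9 with the replicate block, 2 with a filter of a mean of at least 1, 3 without a trend, 0 with only the 4 libraries compared, 0 at an adjusted p-value threshold of 0.01, and 0 to 3 when a library was left out. For P+B against PFI-3, 2 were called, against 6 with the replicate block, 0 with a mean of at least 1, 5 without a filter, 4 with median centring, 0 without a trend, 0 with the 4 libraries, 0 at 0.01 and 0 to 0 when a library was left out. BI-9564 against DMSO had 0, against 1 with the replicate block and 2 without a filter, and BI-9564 against PFI-3 had 0, against 4 with the replicate block and 6 without a filter. Without a filter, limma warned that most of the residual variances were 0, so those calls are unreliable. The replicate block changed no other count of calls. With no fold threshold 6 members were called with P+B against DMSO. Over 17 alternatives the log2 fold change was 1.01 to 1.65 for Zfp365 (8 kept the call), 0.83 to 1.21 for Zfp346 (6 kept it), 0.65 to 0.98 for Zfp809 (12), -0.83 to -0.51 for Zfp655 (4) and -1.05 to -0.67 for Zfp710 (8). For the 51 named members, 787 of 867 alternative values kept their sign and side of the threshold, 47 were weaker, 8 stronger, and 25 uncalled ones changed sign.

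The family median with P+B against DMSO was 0.073, against -0.00095 with quantile normalization, -0.0201 with median centring, 0.10 for Zfp rows at a mean of 5 or more, 0.0159 at 20 or more, 0.0047 when the DMSO mean alone had to reach 10, 0.0963 when names ending in a letter were also taken, 0.13 without the chromosome 4 cluster, and 0.0624 to 0.0933 with a library left out. With PFI-3 it was 0.0688, against 0.0441 with quantile normalization, 0.0214 with median centring, 0.0495 by the DMSO mean, and 0.0166 to 0.0877 with a library left out. With BI-9564 it was 0.00, against -0.0373 with quantile normalization, -0.0473 with median centring, 0.0393 at 5 or more, -0.0351 at 20 or more, -0.037 by the DMSO mean, and -0.0235 to 0.0149 with a library left out. For P+B against PFI-3 it was 0.0125, against -0.0195 with quantile normalization, -0.0333 with median centring, -0.0535 at 20 or more, -0.0386 by the DMSO mean, 0.0432 without the cluster, and 0.00 to 0.0181 with a library left out. For P+B against BI-9564 it was 0.0494, against 0.0143 with quantile normalization, 0.0036 with median centring, and 0.0283 to 0.0498 with a library left out. For BI-9564 against PFI-3 it was -0.0589, against -0.0072 at 5 or more, -0.037 without the cluster, and -0.0864 to -0.0589 with a library left out. The cause of these moves was not tested.

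The other settings for the chromosome 4 cluster, and the family median without it, were chosen after seeing the data. With a library left out its median was -0.26 to -0.18 with P+B, 0.07 to 0.23 with PFI-3, -0.29 to -0.14 with BI-9564, -0.42 to -0.36 for P+B against PFI-3, -0.45 to -0.36 for BI-9564 against PFI-3 and -0.0612 (without BI-9564 replicate 1) to 0.0772 (without P+B replicate 1) for P+B against BI-9564. Quantile normalization and median centring kept the sign of all 6.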
